A study of Homo sapiens with 8 samples.

Results

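H3K4me3 islands that appeared inside H3K27me3 domains were identified after inhibition of EZH2 in PC9, a cell line from a human lung adenocarcinoma with an activated EGFR kinase. The libraries came from a single line and compared DMSO with 1 μM GSK126, each for 5 days. D. melanogaster chromatin had been added to each reaction as a reference. There were 2 libraries for each treatment and each antibody, numbered as replicates 1 and 2, and the lists of enriched regions, called islands, were deposited for each library. The study describes its replicates as biological, and the labels do not say how they were separated. The members were selected on the measured islands themselves. A member was an H3K4me3 island with GSK126 that overlapped no H3K4me3 island of the DMSO library of the same replicate and lay wholly inside an H3K27me3 island of the DMSO library, here called a domain. This gave 181 members in replicate 1 and 267 in replicate 2, 448 of the 39455 H3K4me3 islands with GSK126. They marked 426 distinct places.

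H3K27me3 is laid down by EZH2, the catalytic subunit of Polycomb repressive complex 2, over genes that are held silent. H3K4me3 is laid down at active promoters by the SET1 and MLL family of methyltransferases, mostly where CpG dinucleotides are dense. Regions with both marks are called bivalent, and they are known at the promoters of developmental genes. GSK126 competes with the methyl donor in EZH2. An island caller cannot tell whether both marks sit on the same chromosome copies or in different cells.

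The labelled cell line was checked with H3K4me3 islands at gene starts. All 6 epithelial genes tested (EPCAM, CDH1, KRT8, KRT18, KRT19 and EGFR) had an island in all 4 libraries. Among genes of other cell types, PTPRC, PECAM1 and DES had none, CDH5 and COL1A1 had an island in all 4 libraries, and CD3E had one in DMSO replicate 1 only.

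The members that appeared in both replicates are the ones most often compared below. The sequence at the centre of 5 of the highest-ranked is printed here as examples, which do not stand for all members. Each stretch of 200 bases is the plus strand of GRCh37, taken from the middle of the part shared by both replicates, and overlaps no annotated exon. CpG dinucleotides are in capitals, and each place is named by its nearest protein-coding gene start.
TTLL7, chr1:84158501-84158700: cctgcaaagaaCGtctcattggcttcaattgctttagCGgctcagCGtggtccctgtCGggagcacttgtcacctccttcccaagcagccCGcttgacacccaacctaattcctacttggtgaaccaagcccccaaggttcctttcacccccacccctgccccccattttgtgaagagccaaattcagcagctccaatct
DGKG, chr3:186131501-186131700: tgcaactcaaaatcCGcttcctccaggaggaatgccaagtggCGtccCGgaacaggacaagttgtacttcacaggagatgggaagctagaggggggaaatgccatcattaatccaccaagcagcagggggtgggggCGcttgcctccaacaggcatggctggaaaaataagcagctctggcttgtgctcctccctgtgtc
CMPK2, chr2:6599501-6599700: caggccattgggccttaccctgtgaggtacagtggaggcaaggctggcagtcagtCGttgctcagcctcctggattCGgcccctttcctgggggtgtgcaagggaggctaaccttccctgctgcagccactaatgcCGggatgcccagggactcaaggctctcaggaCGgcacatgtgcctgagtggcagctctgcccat
PYY, chr17:42072101-42072300: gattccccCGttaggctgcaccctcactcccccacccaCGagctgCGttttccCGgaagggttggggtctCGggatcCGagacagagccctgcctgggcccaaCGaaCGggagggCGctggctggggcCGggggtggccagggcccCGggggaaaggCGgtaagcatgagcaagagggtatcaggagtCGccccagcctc
PPFIA2, chr12:82152601-82152800: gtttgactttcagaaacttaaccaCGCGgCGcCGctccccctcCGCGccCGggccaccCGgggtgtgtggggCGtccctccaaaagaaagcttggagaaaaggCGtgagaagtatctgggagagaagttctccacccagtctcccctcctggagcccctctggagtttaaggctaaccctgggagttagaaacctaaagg
The stretches near TTLL7, DGKG and CMPK2, which lie between genes, held 5, 4 and 4 CpGs. Those at PYY, within the gene, and at the PPFIA2 promoter held 13 and 10.

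The members were weak islands. SICER, the caller, gives each island a score, which adds up, window by window of 200 bp, how improbable the tag counts are under a Poisson background. The 2 treatments of a replicate had been brought to the same tag number for the standard lists, and the fitted background was 1.77 tags per window in both H3K4me3 lists of replicate 1 and 0.302 in those of replicate 2. Replicate 1 was thus the deeper. Member scores in replicate 1 ran from 31.1 to 112, with a median of 39.5, against a lowest score of 31.1 in the whole list. In replicate 2 they ran from 22.6 to 95.5, with a median of 28.0 against a lowest of 22.6. The median member was 1.27 and 1.24 times the lowest score of its list, whereas H3K4me3 islands inside domains that were present in both treatments, here called kept, had medians of 5.75 and 3.94 times. Of the members, 66.3% and 62.9% were in the lowest 10% of their list. The median length was 1200 bp in replicate 1 and 800 bp in replicate 2. No member of replicate 1 was a single window, and the 5 single-window members of replicate 2 held from 9 to 11 tags.

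**Figure D1:**
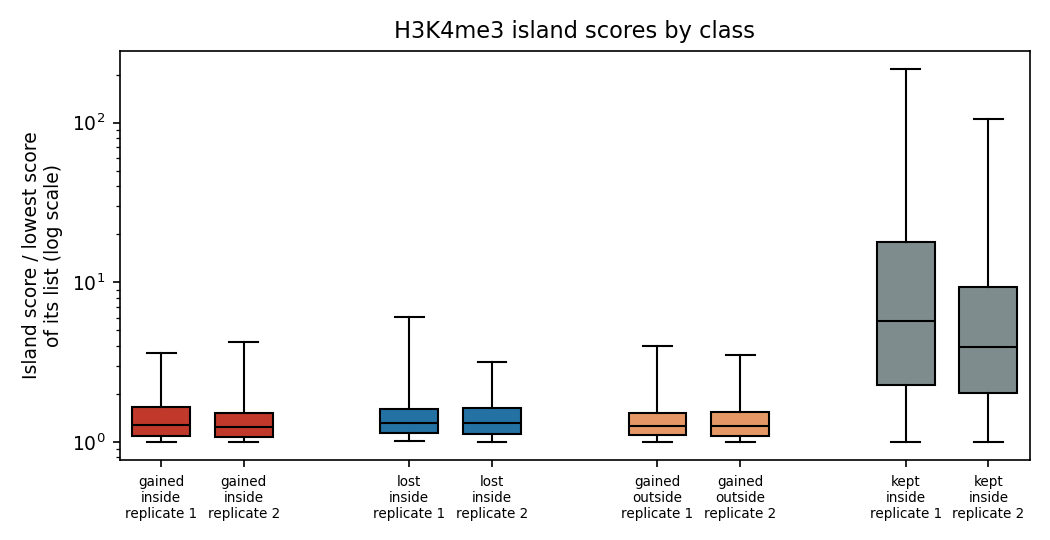
Score of H3K4me3 islands divided by the lowest score of their list, on a log scale, for each class and replicate. Boxes are quartiles with the median, and whiskers reach the lowest and highest island. The gained, lost and gained-outside boxes all sit near 1, and the kept islands have medians of 5.75 and 3.94.

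The rule turned on an overlap with DMSO islands, and few members lay at its edge. In replicate 1, 9 members were within 1000 bp of a DMSO island and the nearest was 200 bp away. In replicate 2, 22 members were within 1000 bp, and 2 touched a DMSO island. Of the members, 79.6% and 70.0% were farther than 10000 bp from a DMSO island. Just on the other side, 4 and 21 kept islands met a DMSO island by only 200 bp. A further 40 and 31 gained islands were only partly inside a domain, with 200 to 2200 bp and 200 to 1800 bp outside.

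Gained islands were set beside their mirror, islands of the DMSO list that met no GSK126 island, here called lost. Over the whole lists, 3.94% of GSK126 islands were gained and 14.4% of DMSO islands were lost in replicate 1, and 8.07% and 11.3% in replicate 2. These are the background shares. Inside domains, 181 of 1597 islands (11.3%) were gained and 264 of 1629 (16.2%) were lost in replicate 1. In replicate 2, 267 of 1266 (21.1%) were gained and 282 of 1252 (22.5%) were lost. The log2 ratio of gained to lost islands inside domains was -0.54 and -0.08, a mean of -0.31 ± 0.33 (SD, n = 2). Outside domains it was -2.29 and -0.62. Thus gains did not outnumber losses inside domains in either replicate, and losses exceeded gains by more outside them. In replicate 2 the ratio inside domains was close to 0 and its sign was not stable, since it was 0.14 with a score at least 2 times the lowest of the list and 0.01 without islands near an island of the other treatment. These shares use the contrast that chose the members and carry no test.

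H3K27me3 at the members was then followed into the GSK126 libraries, which the rule had not used. At equal tag number, most members still lay under an H3K27me3 island. In replicate 1, 149 of 181 members (82.3%, 95% Clopper-Pearson interval 76.0 to 87.6) overlapped a GSK126 island, and 143 were wholly covered. In replicate 2, 211 of 267 (79.0%, 73.6 to 83.8) overlapped one, and 191 were wholly covered. The mean was 80.7% ± 2.33 (SD, n = 2). With the spike-in lists, in which the GSK126 libraries had been reduced further by the ratio of D. melanogaster tags, 57.5% (49.9 to 64.8) and 60.3% (54.2 to 66.2) overlapped an island, a mean of 58.9% ± 2.01 (SD, n = 2). The intervals cover counting error only.

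Kept islands inside domains overlapped GSK126 H3K27me3 more often, at 87.5% and 84.5% in the standard lists. The difference for members was -5.18 and -5.46 percentage points, a mean of -5.32 ± 0.20 (SD, n = 2). In the spike-in lists it was -9.91 and -7.67 points. It was of the same direction in both replicates, and an exact two-sided sign-flip test over 2 replicates gave p = 0.5, the smallest it allows. Kept islands were longer, with medians of 2000 and 1400 bp, and an overlap of 1 bp is easier for a longer island. Whole coverage, which is easier for a shorter island, followed the overlap only in the standard lists of replicate 2. In the standard lists 79.0% and 71.5% of members were wholly covered against 71.8% and 73.7% of kept islands, and in the spike-in lists 45.3% and 56.2% against 41.5% and 53.8%. The share of bases covered was lower for members, at 81.5% and 76.0% against 83.1% and 81.9% in the standard lists. In the spike-in lists it was 55.1% and 59.3% against 59.8% and 63.7%. When an island needed only to touch a domain instead of lying wholly inside, the difference in overlap turned to 1.94 and 3.53 points in the standard lists and to -1.29 and 3.76 points in the spike-in lists. Lost islands were at 78.0% and 79.4%. The difference of members from lost islands was 4.29 points in replicate 1 and -0.41 points in replicate 2, with opposite signs. In the spike-in lists it was -2.77 and -2.47 points, which is within the counting intervals of each replicate.

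**Figure D2:**
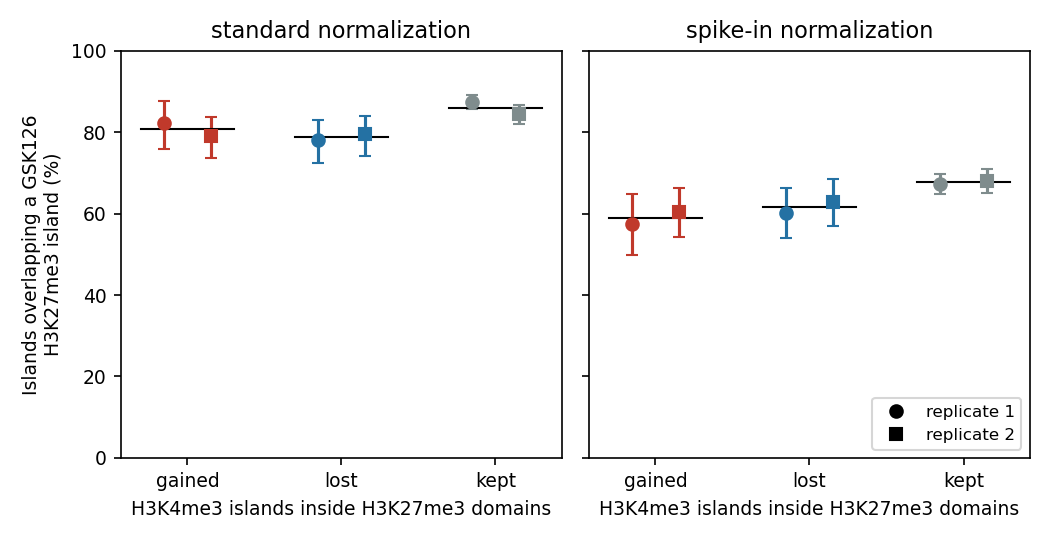
Share of H3K4me3 islands inside H3K27me3 domains that overlap a GSK126 H3K27me3 island, for gained, lost and kept islands, under each normalization. Circles and squares are replicates 1 and 2 with 95% Clopper-Pearson intervals, and lines are means. Gained islands average 80.7% in the standard lists and 58.9% in the spike-in lists, below kept islands in both.

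The domains that held a member were larger than others. The rule itself favours this, since a whole H3K4me3 island had to fit inside, so all domains are not matched to the hosts in length. The 179 host domains of replicate 1 had a median length of 9800 bp against 6800 bp over all 26380 domains, and the 260 hosts of replicate 2 had 8900 bp against 4800 bp over 33341. Of the hosts, 91.1% and 87.3% kept some H3K27me3 island in the standard GSK126 lists, against 77.9% and 61.7% of all domains. The share kept was higher in longer hosts. Members in domains under 10 kb overlapped a GSK126 island in 77.8% and 66.4% of cases, members in domains of 10 to 40 kb in 84.9% and 91.5%, and the 18 and 36 members in domains of 40 kb or more in 94.4% in each replicate. Lost islands lay in longer domains, with 63 of 264 and 58 of 282 in domains of 40 kb or more. In domains under 10 kb, members overlapped a GSK126 island more often than lost islands in both replicates, since lost islands were at 51.2% and 60.7%. In domains of 10 to 40 kb lost islands were at 86.8% and 88.4%, and in domains of 40 kb or more at 95.2% and 98.3%. With the spike-in lists the steps for members were 47.8%, 61.6% and 88.9% in replicate 1 and 41.6%, 75.5% and 91.7% in replicate 2. Lost islands in domains under 10 kb were at 33.8% and 35.7%. Kept islands stepped through 57.0%, 74.1% and 87.4% in replicate 1 and 58.1%, 78.8% and 90.6% in replicate 2. Members were thus lower than kept islands except in domains of 40 kb or more. The share kept rose with host length in each case. A longer domain also offers more windows to the caller, and the part of this in the result was not tested.

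Loss of H3K27me3 at a member was of 2 kinds. In replicate 1, 32 members were uncovered in the standard list, of which 16 lay in a host without any GSK126 island and 16 in a host that kept an island elsewhere. In replicate 2, 56 were uncovered, 33 with the whole host gone and 23 with the host partly kept. Over all hosts, 81.5% and 76.0% of member bases were covered in the GSK126 standard lists, against 87.3% and 88.0% of the remaining host bases. The same was also counted member by member. In replicate 1, 97 members were more fully covered than the rest of their host, 19 less and 64 equally, and in replicate 2 the numbers were 158, 32 and 75. Only 6 and 20 members were partly covered, and a wholly covered member exceeds the rest of any host not fully kept. This count therefore largely restates whole coverage and gives no direction against the base totals. The base totals weight long hosts more heavily, and 1 and 2 members filled their host and had no remainder.

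The other replicate, which had not been used to choose a member, was used as a check of the H3K4me3 gain. Of the 181 members of replicate 1, 29 (16.02%, 11.0 to 22.2) met an H3K4me3 island of GSK126 replicate 2 and 9 (5.0%, 2.30 to 9.23) met one of DMSO replicate 2. Thus 24 were seen with GSK126 only, 4 with DMSO only, 5 with both and 148 with neither in the shallower replicate. Islands lost in replicate 1 leaned the opposite way, with 31 of 264 in GSK126 and 46 in DMSO of replicate 2. The members of replicate 2 showed almost no such lean. Of 267, 164 (61.4%, 55.3 to 67.3) met a GSK126 island of the deeper replicate 1 and 161 (60.3%, 54.2 to 66.2) met a DMSO island there. Of these, 138 met both, 26 only GSK126 and 23 only DMSO. More than 60% of the members of replicate 2 therefore had an island in the deeper DMSO library. Among the 104 members of replicate 2 at promoters, 79 met a GSK126 island and 78 a DMSO island of replicate 1. When an island had to be absent from both DMSO libraries and inside a domain of either replicate, 196 islands of replicate 1 and 120 of replicate 2 met the rule. This makes the DMSO condition stricter and the domain condition looser at once. Of those islands, 78.1% and 66.7% overlapped a GSK126 H3K27me3 island in the standard lists. The H3K27me3 domain itself was shared more widely, since 87.3% and 94.4% of members overlapped a DMSO H3K27me3 island of the other replicate.

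**Figure D3:**
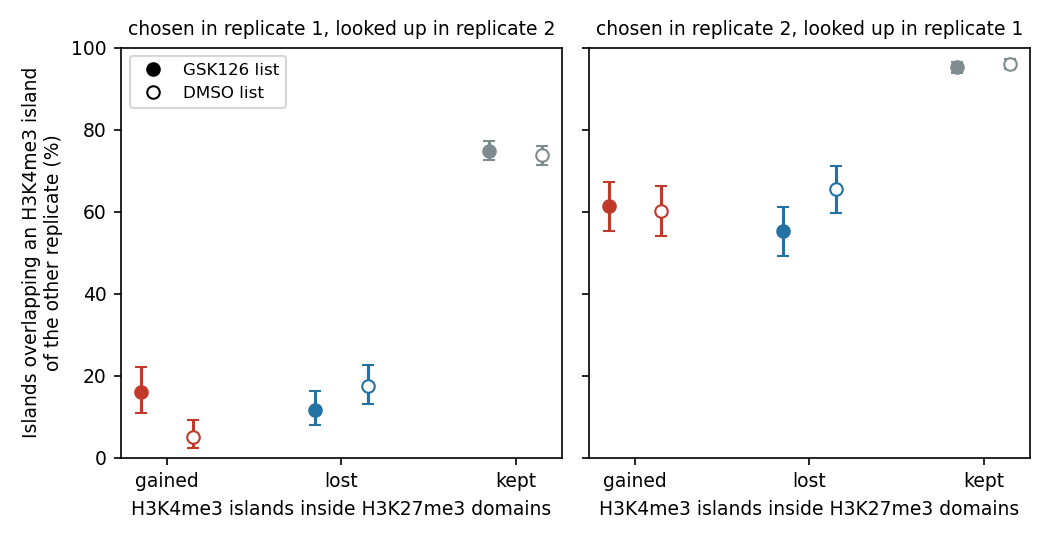
Share of gained, lost and kept H3K4me3 islands inside domains that overlap an H3K4me3 island of the replicate not used to choose them, with 95% Clopper-Pearson intervals. Filled points are the GSK126 list and open points the DMSO list. Members of replicate 1 stand at 16.02% and 5.0%, and members of replicate 2 at 61.4% and 60.3%.

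In total 22 places were members in both replicates, which is 12.2% of the members of replicate 1 and 8.2% of those of replicate 2. By comparison, 23 islands lost inside domains were lost in both, 8.7% and 8.2%. Gains outside domains recurred in 4.9% and 2.7%. Of the 22 places, 9 were within 2000 bp of a protein-coding start. H3K27me3 islands were present at 18 in both GSK126 standard lists and at 12 in both spike-in lists, and were absent at 2 from both standard lists and at 7 from both spike-in lists. The score of the overlapping H3K27me3 island was compared at equal tag number, and an absent GSK126 island was counted as lower. It was higher with GSK126 than with DMSO in both replicates at 7 places, lower in both at 10 and of mixed direction at 5. The score also follows island length, so this split does not measure H3K27me3 at the member itself. At the place nearest PHACTR3, counted as higher, the DMSO islands were 15200 and 13000 bp long and the GSK126 islands 80400 and 87200 bp. The 15 places with the highest mean score rank are described below, and of the other 7, 3 were at a start and all kept H3K27me3 in both standard lists.

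PPFIA2 encodes a liprin scaffold of the presynaptic active zone. Its promoter had no H3K4me3 island in either DMSO library and new islands with scores of 106 and 28.4 with GSK126 (replicate 1, chr12:82151801-82153600). The nearest DMSO island was 596200 bp away in replicate 1. The domain of 3800 bp had an H3K27me3 score of 129 in the DMSO and 141 in the GSK126 library of replicate 1, and replicate 2 had 78.2 and 101. The GSK126 island of replicate 1 was shorter, at 2200 bp, and covered 57.9% of the domain, so the score was higher over a shorter stretch. The member itself was wholly covered in both replicates. The spike-in lists gave scores of 61.6 and 45.1. The stretch printed above lies in this island.

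EVX1 encodes a homeobox transcription factor at the end of the HOXA cluster. The new island at chr7:27284801-27286000 had the same borders in both replicates, with scores of 39.3 and 29.8, and lay 987 bp from a start. A kept H3K4me3 island stood 7600 bp away in the DMSO library of replicate 1. The H3K27me3 score of its domain of 22000 bp was 1212 in the DMSO and 1541 in the GSK126 library of replicate 1, whereas replicate 2 had 1564 and 1897. In the spike-in lists the scores were 410 and 654, and the islands still covered the member.

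UGT3A2, which encodes a UDP-glycosyltransferase, showed the opposite arrangement. The new H3K4me3 island at its promoter (replicate 1, chr5:36071001-36072400) scored 89.1 and 24.0. The member lay in a domain of 10800 bp in replicate 1 and 3600 bp in replicate 2 with DMSO. No GSK126 H3K27me3 island covered it in any list. The host kept 64.8% of its length in replicate 1 and 22.2% in replicate 2, and the retained island ended 400 bp short of the new H3K4me3 island in replicate 1 and 1000 bp short of it in replicate 2. Near GNA12, a G protein subunit gene whose start was 34859 bp away, H3K27me3 was also absent from all GSK126 lists, and the hosts of 10400 and 2200 bp had no standard island left. H3K4me3 scores there were 43.7 and 40.1 (replicate 1, chr7:2918801-2920000).

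**Figure D4:**
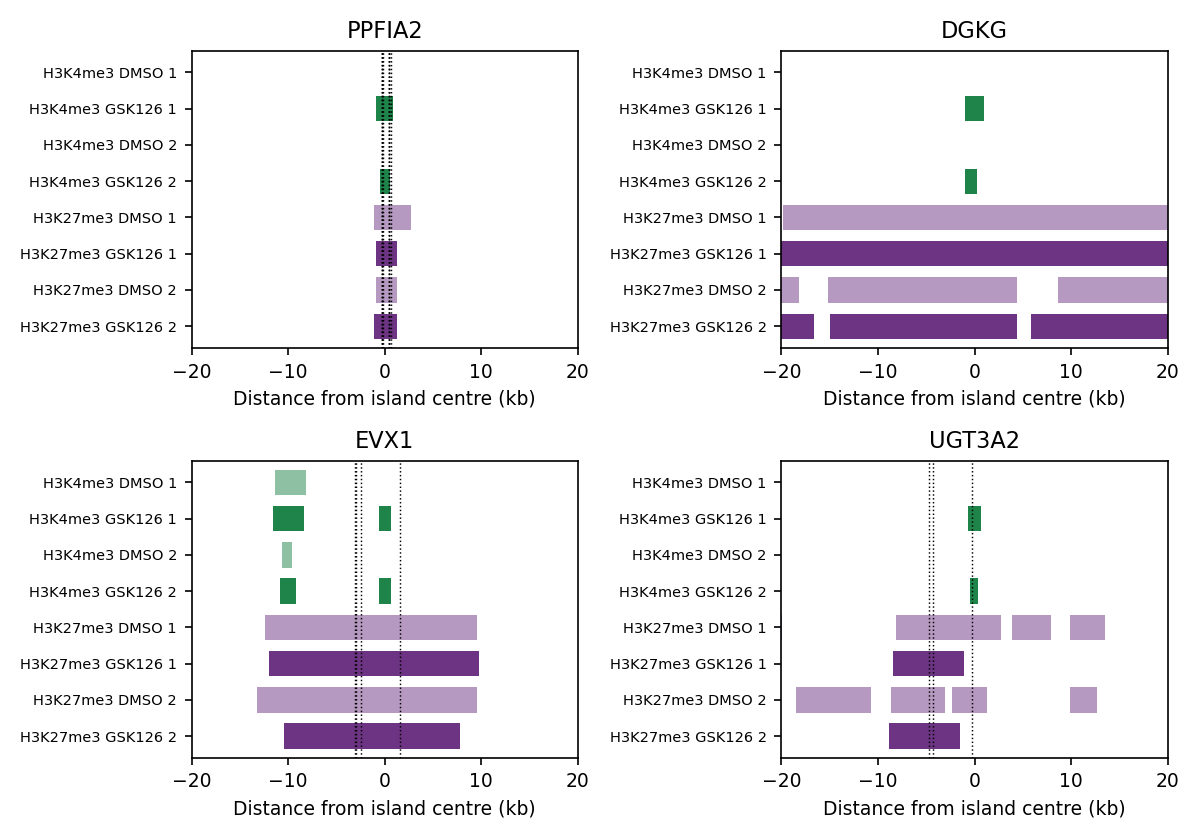
Islands of the standard lists around 4 places that were members in both replicates, by distance from the centre of the member of replicate 1. Each row is a library, named by mark, treatment and replicate, green for H3K4me3 and purple for H3K27me3, paler for DMSO, and dotted lines are protein-coding gene starts. New H3K4me3 islands stand at the centre with GSK126 only. H3K27me3 spans the centre in all 4 libraries at PPFIA2, DGKG and EVX1 and with DMSO only at UGT3A2.

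Shared members at starts also included PLPPR4, a neuronal phospholipid phosphatase-related gene, NCMAP, a gene of peripheral myelin, and SPAG17, a gene of the ciliary axoneme. H3K4me3 scores were 49.1 and 40.2 at PLPPR4, 62.3 and 27.3 at NCMAP and 58.9 and 28.3 at SPAG17. H3K27me3 at PLPPR4 was kept in both standard lists, with scores of 213 and 291 in DMSO and GSK126 of replicate 1 and 154 and 178 in replicate 2. At SPAG17 it was kept in the standard list of replicate 1, with scores of 87.8 and 93.2, but in neither spike-in list and in no GSK126 list of replicate 2, where DMSO scored 43.3. At NCMAP both standard lists held it, and of the spike-in lists only that of replicate 1.

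Several of the strongest shared members lay away from gene starts. The place with the highest mean rank lay between genes, 189131 bp from the start of TTLL7, a tubulin polyglutamylase gene, with H3K4me3 scores of 73.9 and 52.4. H3K27me3 there was weak, at 83.8 in DMSO and 58.6 in GSK126 of replicate 1, and replicate 2 had 76.2 in DMSO and no island in GSK126. The place nearest DGKG, a diacylglycerol kinase gene 50978 bp away, scored 85.4 and 37.1 in the middle of a broad domain, whose score was 1656 in DMSO and 1773 in GSK126 of replicate 1, while replicate 2 had 1083 and 1540. The place nearest CMPK2, a mitochondrial nucleotide kinase gene 402196 bp away, scored 78.7 and 36.8, and its H3K27me3 scores of 242 and 261 with DMSO were 245 and 247 with GSK126. In the body of LDLRAD4, whose product dampens TGF-β signalling, the member scored 81.7 and 31.7. The H3K27me3 score there was 2182 in DMSO and 4603 in GSK126 of replicate 2, while replicate 1 had 2842 and 2681. Those islands were 30000 and 29000 bp long in replicate 2 but 54800 and 29200 bp in replicate 1, so the scores of replicate 1 compare unlike lengths. In PYY, a gut peptide hormone gene, H3K4me3 scored 60.8 and 34.4, and H3K27me3 was in both standard lists and neither spike-in list.

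The same loss under the spike-in normalization was seen near VSTM2A and PPIF. The VSTM2A place, 41515 bp from the start, scored 41.3 and 39.2 for H3K4me3. The overlapping H3K27me3 island scored 914 in DMSO and 146 in GSK126 of replicate 1, and replicate 2 had 118 and 99.0. In replicate 1 those islands were 22600 and 9800 bp long, and islands of the standard GSK126 list still covered 80.5% of the domain. The place 28987 bp from PPIF, which encodes the mitochondrial cyclophilin, scored 33.8 and 38.7, and H3K27me3 went from 230 to 63.0 and from 174 to 69.1. The place nearest CNTNAP5, a neurexin family gene, scored 36.4 and 29.8, and its H3K27me3 was retained in all 4 GSK126 lists.

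Beyond shared places, the 10 highest-scoring promoter members of replicate 1 were at PPFIA2, RDM1, FRZB, UGT3A2, AOC1, RUFY4, C7orf31, COL24A1, NCMAP and SOX5. RDM1 is a DNA repair gene, FRZB a secreted WNT antagonist, AOC1 a diamine oxidase, COL24A1 a fibrillar collagen and SOX5 an HMG-box transcription factor. Scores ran from 106 at PPFIA2 to 62.0 at SOX5, with 96.4 at RDM1 and 89.3 at FRZB. Of these 10, 8 had no H3K4me3 island in DMSO replicate 2, RUFY4 and C7orf31 being the exceptions, and 5 had one in GSK126 replicate 2. H3K27me3 wholly covered 8 in the GSK126 standard list and was absent at UGT3A2 and RUFY4. With the spike-in list 7 kept some, and RDM1 was also without.

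The 10 highest promoter members of replicate 2 were at CNTN5, UNC5C, CAVIN3, CFAP221, SLC16A9, NDRG4, PHACTR1, COLGALT2, CDK5R2 and CFAP65. CNTN5 is a neuronal adhesion gene, UNC5C a netrin receptor, CAVIN3 a caveolar coat gene, SLC16A9 a monocarboxylate transporter, CDK5R2 an activator of CDK5, and CFAP221 and CFAP65 are genes of the cilium. Scores ran from 72.2 at CNTN5 to 49.4 at CFAP65. In contrast to replicate 1, all 10 overlapped an H3K4me3 island of DMSO replicate 1 as well as of GSK126 replicate 1. The absence of an island in DMSO replicate 2 was thus not seen in the deeper library for any of them. At UNC5C and NDRG4 the whole H3K27me3 domain, of 3800 and 6400 bp, was absent with GSK126 in both lists, whereas the other 8 were wholly covered in the standard list.

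Of the 5 strongest members of replicate 1 farther than 2000 bp from a protein-coding start, the highest, with a score of 112, lay 248421 bp from MTRR and the others were nearest to GALR1, VSTM2A, RFPL4AL1 and DGKG. None had an island in DMSO replicate 2, and only that near DGKG had one in GSK126 replicate 2. All 5 were wholly covered by H3K27me3 in the standard list. The member nearest GALR1, 367705 bp away, touched the start of a long noncoding RNA gene. In replicate 2 the 5 were nearest to FABP12, ESRRB, COL23A1, ZNF33B and MICB, with those at ESRRB and COL23A1 in introns, and all had islands in both libraries of replicate 1. The member nearest ZNF33B lay 726115 bp from it and 600 bp from a DMSO island of its own replicate.

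Groups of genes were examined through 8 lists. Of 20136 protein-coding genes, 56 in replicate 1 and 107 in replicate 2 had a member within 2000 bp of a start, which is 0.28% and 0.53%, and 90 and 108 had a lost island. The start lay in a domain for 20.4% of genes in replicate 1 and for 4028 genes in replicate 2. For homeobox and other developmental transcription factors, 61.4% and 62.3% of the 114 starts were in a domain, and 2 and 5 genes had a member while 2 and 5 had a lost island. The 6 genes of the list with a member were EVX1, HOXD3, LHX2, PAX3, PAX5 and TBX1. Each of these islands was wholly covered by H3K27me3 in the standard and the spike-in list of its replicate. Their scores were low, from 23.5 at PAX3 to 29.8 at EVX1 in replicate 2 and 39.3 at EVX1 and 40.4 at HOXD3 in replicate 1. LHX2 and TBX1 also had a lost island nearby in the same replicate. LHX2, PAX3, PAX5 and TBX1 had an island in both libraries of replicate 1, and HOXD3 had none in either library of replicate 2. The list was not complete, since PRRX1, a homeobox gene, and SOX5 had promoter members in replicate 1 outside it. PRRX1 scored 41.8 and was wholly covered in both lists. SOX5 scored 62.0 and was covered over 66.7% of its length in the spike-in list.

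Ion channels and neurotransmitter receptors had 69.0% and 70.4% of 71 starts in a domain, and 3 genes had a member, the potassium channel genes KCNE4 and KCNH1 in replicate 1 and the glutamate receptor gene GRIN2D in replicate 2. KCNE4 and KCNH1 scored 35.1 and 35.4, without an island in either library of replicate 2. The list did not hold every channel gene. KCNJ5, outside it, had a member 251 bp from its start in both replicates, wholly covered by H3K27me3 in every GSK126 list. KCNA2, also outside it, had a member 1279 bp from its start in replicate 1, with a score of 36.0. Among 59 cadherins, protocadherins and axon guidance genes, UNC5C and ROBO3, both guidance receptors, had a member in replicate 2. Among 54 genes of the epithelial to mesenchymal transition and matrix, COL9A3, ITGA4 and MMP17 did. ITGA4, an integrin subunit, scored 27.5 without an island in either library of replicate 1. The members at GRIN2D, ROBO3, UNC5C and COL9A3 met islands of both libraries of replicate 1, and that at MMP17 met one of DMSO replicate 1 only. H3K27me3 at ITGA4 and MMP17 was in no GSK126 list of replicate 2. Of 32 annotated genes reported as EZH2-repressed growth inhibitors, 1, DAB2IP, had a member, which met islands of both libraries of replicate 1. Lost islands were about as frequent in these lists, with 4 ion channel genes, 2 adhesion and guidance genes, 2 transition and matrix genes and 1 growth inhibitor over both replicates. No gene of the lists for WNT, BMP, FGF and hedgehog signalling, for MHC and interferon, or for lung epithelial and keratinocyte lineage had a member, although 32 of 59 signalling genes had a start in a domain in replicate 1. In each of these 3 lists 1 gene had a lost island. The signalling list did not hold every WNT gene, since FRZB, the WNT antagonist with a promoter member in replicate 1, was not on it. With so few members per list, no difference between lists was read.

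The position of members differed from that of kept islands. Of the members, 52 of 181 (28.7%, 22.3 to 35.9) and 104 of 267 (39.0%, 33.1 to 45.1) were within 2000 bp of a protein-coding start, against 60.1% (57.5 to 62.7) and 64.2% (61.1 to 67.1) of kept islands inside domains. Lost islands were at 31.8% (26.2 to 37.8) and 35.5% (29.9 to 41.4), and islands gained outside domains at 12.0% and 24.5%. The intervals of gained and lost islands overlapped in each replicate, whereas those of gained and kept islands did not. Between genes and away from noncoding starts lay 44.2% and 36.0% of members, 14.4% and 14.2% were in introns without an exon, and 8.8% and 6.0% were at starts of long noncoding RNA genes only. H3K27me3 in the standard GSK126 lists was kept at 86.5% and 81.7% of promoter members and at 69.2% and 73.7% of intronic members.

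The sequence of the members was intermediate. The CpG observed to expected ratio, which is near 1 where CpGs are as frequent as the C and G content allows, had a median of 0.372 in replicate 1 and 0.465 in replicate 2. Kept islands inside domains had 0.560 and 0.661, and islands gained outside domains 0.302 and 0.277. Lost islands inside domains, at 0.362 and 0.460, were close to the members. A GC content of at least 50% and a ratio of at least 0.6 over the whole island were met by 9.9% and 31.8% of members and by 38.2% and 59.0% of kept islands. Promoter members had medians of 0.460 and 0.639. Among the shared places described above it was 0.151 at UGT3A2 and 0.717 at EVX1.

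**Figure D5:**
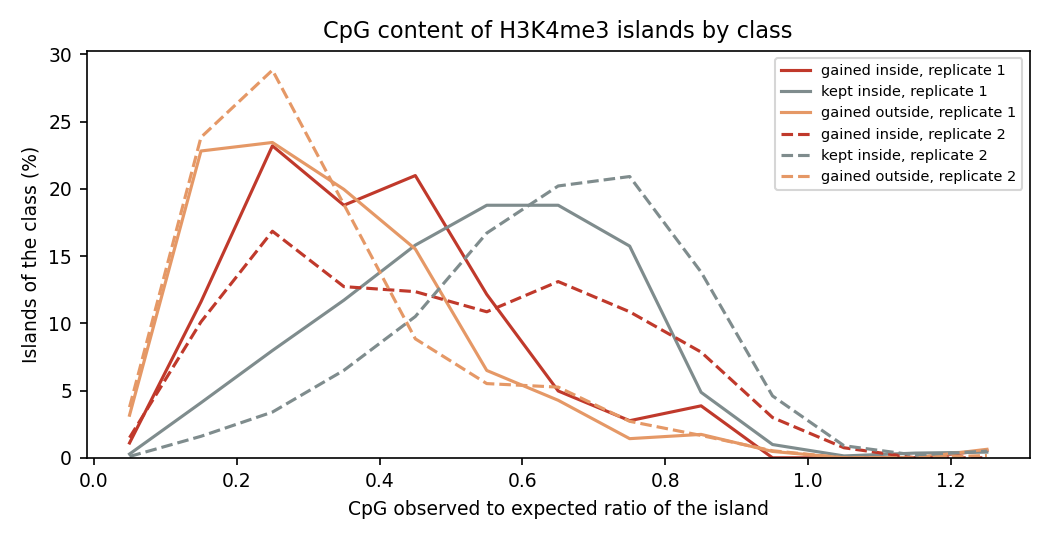
Share of H3K4me3 islands by CpG observed to expected ratio, in steps of 0.1, for islands gained inside domains, kept inside domains and gained outside domains in each replicate. Values over 1.3 are drawn in the last step. Members of both replicates lie mostly to the left of the kept islands, with medians of 0.372 and 0.465 against 0.560 and 0.661.

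The central 300 bp of each island were searched on both strands for 6 motifs, none of which contains another. The GC box (GGGCGG) was in 23.8% and 33.7% of members, against 51.8% and 58.6% of kept islands inside domains and 35.4% and 48.9% of all GSK126 islands. The AP-1 motif (TGANTCA) was in 7.2% and 5.2% of members and 10.0% and 6.7% of all islands. A forkhead motif (TGTTTAC) was in 7.2% (3.88 to 12.0) of members in replicate 1 against 3.1% of all islands, and in 1.9% against 2.2% in replicate 2. Islands gained outside domains had it in 6.7% and 4.8%. The ETS motif (CCGGAAG) was in 2.2% and 2.6% against 5.0% and 7.6%, the C/EBP motif (TTGCNNAA) in 7.7% and 5.6% against 10.4% and 7.0%, and the E-box (CACGTG) in 5.5% and 10.5% against 5.2% and 6.5%. The E-box of replicate 2 was also at 16.3% of lost islands inside domains. A match describes the letters and not the binding of a factor.

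The gained islands also depended on the depth of the H3K4me3 list. Of the members, 48.1% in replicate 1 and 67.8% in replicate 2 overlapped an island of the GSK126 H3K4me3 spike-in list, which held fewer tags, with a fitted background of 1.48 and 0.263 tags per window. When that list took the place of the standard list, 87 and 199 islands met the rule. The share with H3K27me3 in the standard GSK126 lists was then 81.6% and 79.4%, close to the values above. Among members with a score at least 2 times the lowest of the list, of which there were 27 and 32, it was 85.2% and 84.4%.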

How the data were processed

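ChIP-seq island lists of 8 libraries were analysed, 14 lists in all. Per the labels and the methods, the authors aligned reads to hg19 with BWA, with SAMtools 0.1.18 named in the submitters' processing notes, removed duplicates and called islands with SICER (E-value 1, 200-bp windows, with the gap set to 600 bp in H3K27me3 and 200 bp in H3K4me3 lists) in each library against a random background. The score of each island was deposited by the authors and served only to rank islands, or to compare standard lists of a replicate. It also follows island length. For standard lists the authors reduced both libraries of a replicate to an equal tag number. For spike-in lists they reduced the GSK126 library by D. melanogaster tags. The H3K27me3 DMSO libraries also had spike-in lists, which differed from their standard lists, with 35901 against 26380 islands in replicate 1 and 35522 against 33341 in replicate 2. Domains were those of the DMSO standard lists unless stated, also where GSK126 spike-in lists were set against them. H3K4me3 with DMSO had a single list per replicate, used for both.

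Replicate numbers came from the library names in the study's sample sheet, since the labels give none, and comparisons were made within a replicate. Members, gene lists and rules were chosen with earlier results of these data known. Overlap meant at least 1 bp. Named were up to 15 places that were members in both replicates and the 10 highest-scoring promoter members and 5 others of each replicate. List genes with a member were named too. KCNJ5, KCNA2 and PRRX1, which were outside the lists, and the place near PHACTR3 were named beyond these rules. Genes were from GENCODE release 44 mapped to GRCh37, and no island ran past a chromosome end of that reference (0 islands). Python 3.11.15, NumPy 2.4.6, pandas 2.3.3, SciPy 1.17.1, pysam 0.24.0 and Matplotlib 3.10.9 were used. The overlap functions were tested on 1500 simulated islands with 0 disagreements. The tag background was fitted from scores of 1-window islands, with simulated lists as a test. The lists hold no counts per window, so depth at a place without an island is unknown. With 2 replicates no exact sign-flip test over replicates can go below p = 0.5. Alternatives were stricter scores, longer islands, other overlap rules, other lists, autosomes, pooled lists and leaving out each replicate. The result for 1 marker of another cell type is not reported here.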

Additional observations from a re-analysis of the deposited data

How the results depend on the processing

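The values below are means over replicates unless they are counts. The number of members, 448, was 59 with a score at least 2 times the lowest of the list and 286 with the GSK126 H3K4me3 spike-in list, and single replicates gave 181 to 267. The log2 ratio of gained to lost islands was -1.39 with that spike-in list. The share with H3K27me3 in the standard GSK126 lists was 84.8% with the stricter score, 76.0% when touching a domain sufficed, 78.2% with spike-in domains and 72.4% without the replicate block, that is, with the lists of both replicates pooled. In the spike-in lists it was 53.0% when touching sufficed, 51.6% without the block and 56.5% when at least 50% of an island had to be covered. The difference from kept islands in the standard lists reversed to 2.74 points when touching sufficed, where kept islands that straddle a domain edge enter. It was -1.92 points with the stricter score, -5.08 with islands of at least 400 bp, -5.11 with spike-in domains, -5.94 with the H3K4me3 spike-in list, -7.66 without the block, -3.51 at 50% coverage and -3.37 when kept islands were limited to the score range of members, an alternative chosen after seeing the data. In the spike-in lists the mean difference reversed to 1.24 points when touching sufficed, with -1.29 in replicate 1 and 3.76 in replicate 2, and was -6.47 at 50% coverage and -5.66 with the limited kept islands. The share near a gene start was 25.3% without the block, and the median CpG ratio was 0.502 with the stricter score. The other 73 values moved by less than the spread between replicates or, for counts, by less than 1.5 times. Leaving out a replicate took the share of members met in the other replicate from 16.02% to 61.4%, so the mean of 38.7% describes neither. The replicates are paired by the authors' reduction of tags, not by numbers in the labels. Tag counts per window were not used here, so an island just under the caller's limit cannot be told from its absence, and the members, most of them near that limit, are the most exposed to this.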

Other observations

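Some members had neighbours. Within 250 kb of another member of the same replicate lay 27 of 181 members in replicate 1 (14.9%) and 62 of 267 in replicate 2 (23.2%). The share was not taken for other islands, so no clustering of members can be read from it. Only 2 and 7 domains held more than 1 member.

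Gain and loss of H3K4me3 islands met at the same places across replicates in a few cases. An island lost inside a domain in replicate 2 overlapped 3 members of replicate 1, and an island lost inside a domain in replicate 1 overlapped 16 members of replicate 2.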
